A study of Mus musculus with 12 samples.

Results

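The genes described here encode the activin and inhibin signalling system in mouse liver. They were Inhba, Inhbb, Inhbc and Inhbe, which encode the inhibin beta subunits, Fst (follistatin), the receptors Acvr1, Acvr1b, Acvr2a and Acvr2b, and Smad7. Every probe set whose platform annotation carried only one of these symbols was taken, which gave 20 probe sets for 10 genes among 18194 genes with a probe set of 1 symbol. Of the 10 genes, 2 had 1 probe set, 6 had 2 and 2 had 3. One further probe set, shared by Orc4 and Acvr2a, was not used. The genes were proposed with earlier results of these arrays known, and which values led to the choice is not recorded. Every difference between groups is therefore treated as one they were chosen by: adjusted p-values are given as description and are not independent evidence.

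Livers of adult female mice on the B6.129 background were profiled on 12 Affymetrix arrays, 3 in each of 4 groups. The aERKO (Esr1-/-) females lack a working estrogen receptor alpha gene, and were fed either a high-fat diet with 60 kcal% fat or the NIH-31 normal diet. The WT (Esr1+/+) females were fed the same diets, and feeding lasted 2 weeks. The labels name no tissue restriction of the Esr1 mutation and do not say whether each array is a separate animal, so p-values measure the spread between these arrays. Signals are linear MAS5 intensities on which every array has the same trimmed mean.

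Activins are dimers of beta subunits, and inhibins pair a beta subunit with the separate alpha subunit. Activin binds a type II receptor, Acvr2a or Acvr2b, which recruits and phosphorylates a type I receptor such as Acvr1b, and the type I receptor then phosphorylates Smad2 and Smad3. Follistatin binds activin outside the cell and keeps it from its receptors, and Smad7 blocks the pathway at the receptor. In liver, activin A, the dimer of the Inhba product, is known for restraining hepatocyte growth, and Inhbc and Inhbe are made largely by hepatocytes.

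The labels were checked first. Esr1 gave 663 to 885 in aERKO livers on high-fat diet and 586 to 681 on normal diet, against 3140 to 3676 in WT livers on high-fat diet and 1963 to 3930 on normal diet. Array medians lay between 75.6 and 114. All 7 measured hepatocyte markers exceeded the array median on at least 1 array. Pancreatic acinar transcripts stood out on 4 arrays, which were aERKO normal replicate 1, WT high-fat replicates 2 and 3 and WT normal replicate 2: the mean log2 marker signal was 9.90 to 13.8 there and 5.09 to 6.13 on the other 8. Skeletal muscle transcripts stood out on aERKO high-fat replicate 2 and aERKO normal replicate 1, at 8.81 to 10.7 against 5.57 to 7.16 on the other 10. Among the 10 genes, values without some of these arrays are given for Inhba, Inhbb, Fst and Smad7, and a range over omitted single arrays for Inhbe.

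Differences are in log2(signal + 16) between group means, with standard errors from one limma fit to all 4 groups. A gene was represented by its brightest probe set and tested if that exceeded the array median on at least 3 arrays, and p-values were adjusted over all 12264 genes tested. A gene is called when its adjusted p is under 0.05. All 10 genes passed the filter, 8 of them above the array median on all 12 arrays; the exceptions were Fst, with 10 such arrays, and Acvr2b, with 7.

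Of the beta subunits, Inhba was lower in aERKO liver on both diets, and it was the only one of the 10 genes called in any comparison. Inhba encodes the subunit of activin A. On high-fat diet Inhba gave 153.5, 246.7 and 228.0 in aERKO livers, against 544.4, 592.8 and 412.1 in WT livers. On normal diet Inhba gave 245.8, 165.4 and 208.8 in aERKO livers, against 545.6, 567.2 and 710.7 in WT livers. All 6 aERKO arrays lay below all 6 WT arrays, and the high-fat and normal diet arrays of each genotype overlapped. None of the other 9 genes separated the genotypes in this way, while 1.64% of all genes tested had every aERKO array below every WT array.

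The Inhba signal averaged 209 ± 49.3 in aERKO livers and 516 ± 93.5 in WT livers on high-fat diet (SD, n = 3 each). This was a log2 difference of -1.25 ± 0.21 (SE; 95% interval -1.71 to -0.79), or 0.421 of the WT level, with an adjusted p of 0.00645 in limma. On normal diet the averages were 207 ± 40.3 in aERKO livers and 608 ± 89.8 in WT livers (SD, n = 3 each). The log2 difference was -1.49 ± 0.21 (95% interval -1.95 to -1.03), or 0.355 of the WT level, with an adjusted p of 0.00187 in limma. The genotype differences on the 2 diets differed from each other by 0.24 ± 0.30, with an adjusted p of 0.936 in limma, so no dependence on diet was detected. Within a genotype, high-fat diet minus normal diet was 0.01 ± 0.21 in aERKO livers and -0.23 ± 0.21 in WT livers (limma adjusted p 0.994 and 0.824).

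**Figure D1:**
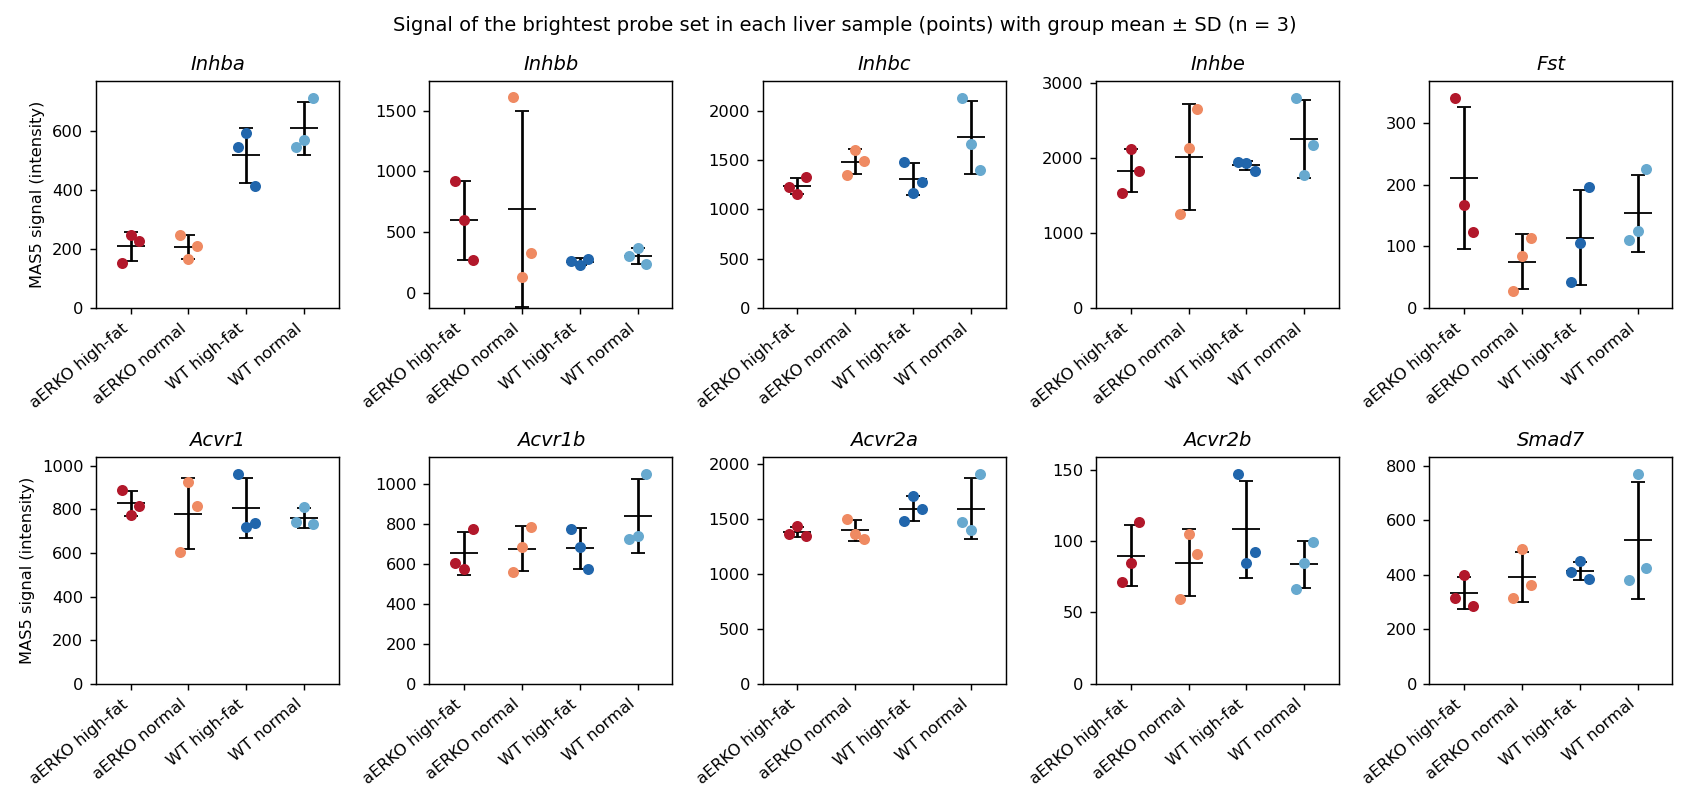
MAS5 signal (linear intensity, vertical axis) of the brightest probe set of each gene in the 12 livers, with groups along the horizontal axis, points for arrays, and a bar for the group mean with its SD. The aERKO points of Inhba lie between 153.5 and 246.7, all below the lowest WT point at 412.1, while the genotypes of each of the other 9 genes overlap over the 12 arrays.

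The Inhba difference was as large without the arrays with pancreatic or muscle transcripts. On the 7 arrays free of both, Inhba gave 153.5 to 228.0 on the 4 aERKO arrays and 544.4 to 710.7 on the 3 WT arrays. Without the 4 arrays with pancreatic transcripts, the log2 difference was -1.66 on normal diet (limma adjusted p 0.0151) and -1.34 on high-fat diet. The second of these was no longer called (limma adjusted p 0.120), with 1 WT high-fat array left, which was assumed to vary like the other groups.

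A second Inhba probe set, 1458291_at, did not show the difference measured by 1422053_at. It exceeded the array median on 1 of 12 arrays and gave log2 differences of 0.93 ± 0.58 on high-fat diet and -0.18 ± 0.58 on normal diet. Averaging both probe sets gave -0.16 on high-fat diet and -0.84 on normal diet and ended both calls (limma adjusted p 0.861 and 0.243). The Inhba result is therefore a result of 1 probe set.

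Of all 12264 genes tested, 6676 had lower means in aERKO livers on high-fat diet and 7091 on normal diet. Counts of lower cell type markers are to be read beside these. All 8 Kupffer cell and macrophage markers were measured, and all 8 had lower means in aERKO livers on both diets, with 0 called and median log2 differences of -0.38 on high-fat diet and -0.32 on normal diet. Their summed signal was 14736 to 17408 in aERKO livers and 18903 to 25332 in WT livers on high-fat diet. On normal diet it was 13094 to 19624 in aERKO livers and 19410 to 20581 in WT livers. The summed signal of the 7 measured hepatocyte markers was 278435 to 340412 in aERKO livers and 317424 to 363244 in WT livers on high-fat diet. On normal diet the hepatocyte sum was 299136 to 367367 in aERKO livers and 387702 to 398098 in WT livers. Of these 7 markers, 4 had lower means in aERKO livers on high-fat diet, with 0 called, and 5 on normal diet, with 1 called. The called one was Alb, the albumin gene, at -0.50 ± 0.10 (limma adjusted p 0.0266). Cholangiocyte markers had larger median log2 differences than the macrophage markers, at -0.48 on high-fat diet and -0.47 on normal diet, but only 3 of 6 were tested, 2 of them lower on both diets and 0 called. The summed signal of the 5 measured was 260 to 296 in aERKO livers and 327 to 644 in WT livers on high-fat diet. On normal diet it was 289 to 382 in aERKO livers and 327 to 1030 in WT livers. Of the tested markers, 6 of 9 stellate and 6 of 8 endothelial ones were lower in aERKO livers on high-fat diet, and 7 and 5 on normal diet, with 0 called. The part of these cell types in the Inhba result was not tested. In whole liver, fewer cells of a type and less RNA per cell cannot be told apart.

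The promoter of Inhba is shown because this was the one gene of the system that differed with genotype. In RefSeq on GRCm38.p6 it spans chr13:16011601-16011900 on the plus strand, from 250 bases before to 50 after the start site. Capitals mark the one match to the motifs searched, a single arm of the estrogen response element (GGTCA on either strand) that reads TGACC here.
Inhba promoter: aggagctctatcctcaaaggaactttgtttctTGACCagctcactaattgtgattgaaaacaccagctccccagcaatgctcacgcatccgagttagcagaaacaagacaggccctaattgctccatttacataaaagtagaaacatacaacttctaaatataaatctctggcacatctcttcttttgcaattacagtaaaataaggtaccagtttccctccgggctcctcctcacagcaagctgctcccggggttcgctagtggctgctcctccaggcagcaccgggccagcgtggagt
The arm occupies bases 33 to 37 of this window, and 40.5% of all 32851 promoters of the same length hold one on either strand. The GC content of the Inhba promoter was 47.7%, against a median of 52.7% over all promoters. The promoters of Fst and Smad7 are not included here, which leaves those of 8 of the 10 genes. Of these, 3 held the single arm (Inhba, Inhbc and Inhbe), and 0 held the full palindromic estrogen response element, which 0.0700% of all promoters hold. The palindromic Smad box (GTCTAGAC, in 0.213% of all promoters) and the ER stress element (in 0.119%) were in 0 of the 8. The Smad GC element (GGCGCC, in 11.9%) was in Acvr1b, and the core of the ATF4 composite element (TGATGNAA, in 3.97%) was in Inhbe. A match of letters is a description of the window and shows no binding.

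Inhbb encodes the subunit of activin B and, on its brightest probe set, varied more between aERKO arrays than between WT arrays. On high-fat diet Inhbb gave 921.8, 596.6 and 271.1 in aERKO livers, against 262.9, 227.5 and 281.0 in WT livers. On normal diet Inhbb gave 1614, 128.8 and 332.4 in aERKO livers, against 300.2, 372.4 and 241.1 in WT livers. High and low aERKO arrays stood on both sides of the WT range on normal diet, a 12.5-fold spread between replicates, and genotypes overlapped on both diets. The genotype difference was 1.01 ± 0.63 on high-fat diet and 0.46 ± 0.63 on normal diet (limma adjusted p 0.490 and 0.812), with 95% intervals of -0.35 to 2.37 and -0.90 to 1.82. The highest array, aERKO normal replicate 1, carried pancreatic and muscle transcripts, and without it the difference on normal diet was -0.49. Their part in the Inhbb spread was not tested. The other probe set, 1426859_at, gave 178.8 to 241.8 in aERKO livers on high-fat diet and 202.6 to 366.6 on normal diet. In WT livers it gave 198.9 to 349.6 and 157.8 to 296.1. It did not show the wider spread of aERKO arrays, and its genotype differences were -0.25 and 0.24.

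Inhbc and Inhbe, the subunits made largely by hepatocytes, each had 1 probe set and differed little between groups. On high-fat diet Inhbc gave 1222, 1158 and 1327 in aERKO livers, against 1481, 1163 and 1282 in WT livers. On normal diet Inhbc gave 1350, 1605 and 1494 in aERKO livers, against 2129, 1660 and 1397 in WT livers. Its genotypes overlapped on both diets, and its means were lower on high-fat diet in both genotypes. High-fat diet minus normal diet was -0.26 ± 0.15 in aERKO livers and -0.38 ± 0.15 in WT livers (limma adjusted p 0.611 and 0.497), and the genotype differences were -0.08 on high-fat diet and -0.20 on normal diet.

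Inhbe is also a hepatokine gene, and its promoter held the ATF4 core named above. It gave 1543, 2123 and 1837 in aERKO livers, against 1952, 1937 and 1837 in WT livers, on high-fat diet. On normal diet it gave 1261, 2132 and 2664 in aERKO livers, against 2808, 1772 and 2183 in WT livers. The spread within groups covered the differences between them: 4 differences between groups ran from -0.21 to -0.07, each with an SE of 0.23. The lowest Inhbe value came from aERKO normal replicate 1, the array with pancreatic and muscle transcripts. Leaving out each array in turn gave genotype differences of -0.43 to 0.11 on normal diet. The part of these transcripts in the Inhbe values was not tested.

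Fst, which encodes the activin antagonist follistatin, had its highest mean in aERKO livers on high-fat diet and its lowest in aERKO livers on normal diet. On high-fat diet Fst gave 341, 167 and 124 in aERKO livers, against 41.8, 105 and 196 in WT livers. On normal diet Fst gave 27.3, 84.9 and 114 in aERKO livers, against 111, 125 and 225 in WT livers. The 3 aERKO high-fat arrays lay above the 3 aERKO normal arrays, and all other pairs of groups overlapped in range. The share of all genes with such a gap was not counted, so nothing is read from it. High-fat diet minus normal diet was 1.34 ± 0.52 in aERKO livers (95% interval 0.22 to 2.45, limma adjusted p 0.360) and -0.51 ± 0.52 in WT livers (limma adjusted p 0.844). The difference between these diet effects was 1.85 ± 0.74 (95% interval 0.27 to 3.43), with an adjusted p of 0.786 in limma, so it was not called.

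The genotype difference of Fst was 0.88 ± 0.52 on high-fat diet and -0.97 ± 0.52 on normal diet, neither of them called (limma adjusted p 0.465 and 0.493). The other probe set, 1421365_at, gave 0.45 on high-fat diet and 0.21 on normal diet, so the probe sets disagreed in sign on normal diet. Its difference between the diet effects was 0.25. The lowest Fst value came from aERKO normal replicate 1, the array with pancreatic and muscle transcripts, and without it the diet difference in aERKO livers was 0.87. Their part in that difference was not tested.

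**Figure D2:**
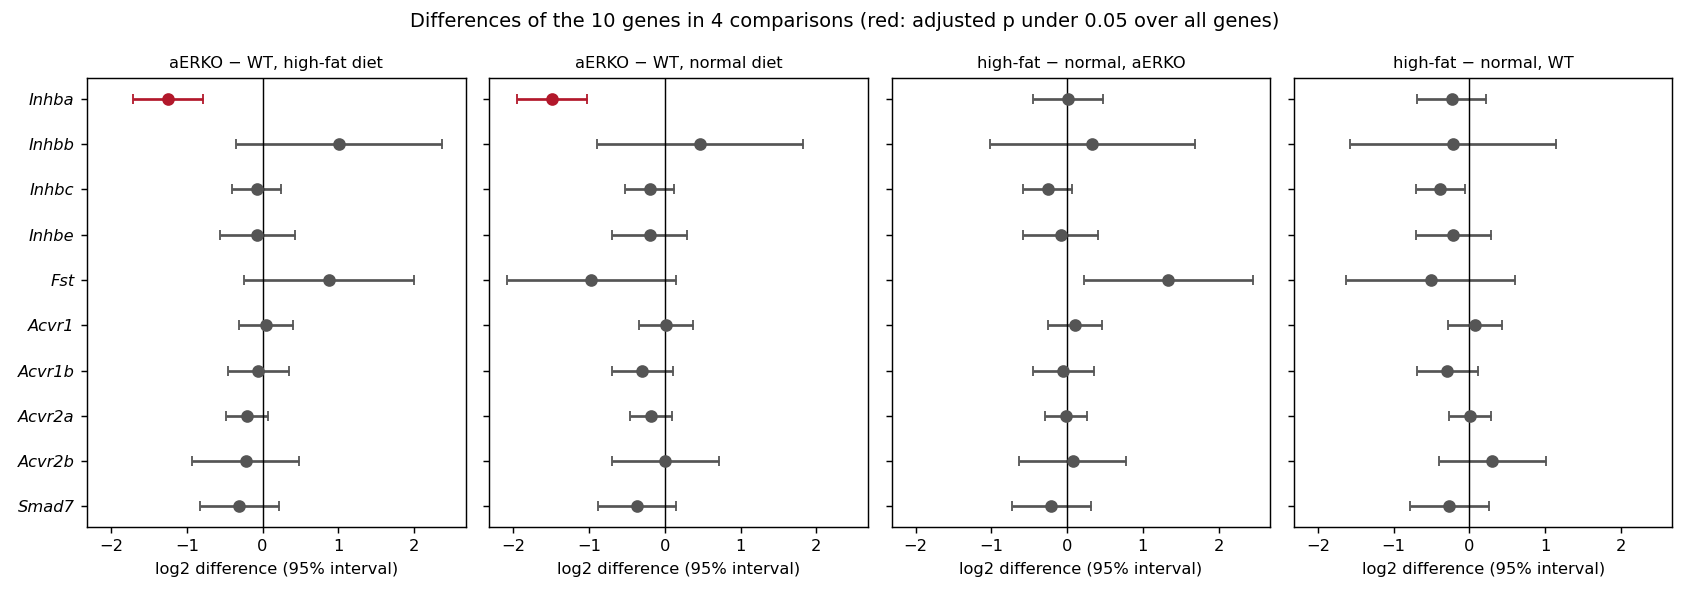
Log2 difference (horizontal axis, points with 95% intervals) of each of the 10 genes (vertical axis) between genotypes on each diet and between diets in each genotype. The 2 red points are Inhba at -1.25 and -1.49, and the intervals of Inhbb and Fst are the widest.

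None of the receptors was called. Acvr2a is a type II activin receptor, Acvr1b is the type I activin receptor that acts on Smad2 and Smad3, and Acvr1 is a type I receptor best known for bone morphogenetic protein (BMP) signals. Over 4 comparisons between groups of each of these 3 genes, the 12 log2 differences lay between -0.30 and 0.10, their 95% intervals lay within -0.70 to 0.45, and the lowest adjusted p in limma was 0.498. None of these intervals reached the size measured for Inhba.

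Acvr2a gave 1360, 1435 and 1348 in aERKO livers, against 1485, 1708 and 1587 in WT livers, on high-fat diet. On normal diet Acvr2a gave 1500, 1365 and 1320 in aERKO livers, against 1468, 1400 and 1913 in WT livers. The genotypes did not overlap on high-fat diet and overlapped on normal diet. How many of all genes show such a gap between groups of 3 arrays was not counted, so nothing is read from it. The log2 differences were -0.20 and -0.18 (limma adjusted p 0.498 and 0.619), each with an SE of 0.13. The other probe set, 1451004_at, gave 0.03 on high-fat diet and -0.15 on normal diet.

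Acvr1 ranged from 604 to 965 over the 12 arrays and Acvr1b from 562 to 1054, and the lowest array of each was aERKO normal replicate 1. A dimmer Acvr1 probe set, 1416787_at, gave genotype differences of -0.34 ± 0.50 on high-fat diet and -1.02 ± 0.50 on normal diet. Another, 1416786_at, gave 0.13 ± 0.24 and -0.15 ± 0.24. An Acvr1b probe set below the filter, 1422098_at, gave -0.01 ± 0.61 on high-fat diet and 1.15 ± 0.61 on normal diet. Acvr2b, the other type II receptor, was dim, from 59.1 to 147 over the arrays. Its 4 differences between groups lay between -0.22 and 0.30 with an SE of 0.33, which leaves intervals from -0.93 to 1.01.

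Smad7, the inhibitory Smad, which Smad signalling itself induces, was read by probe sets that differed in sign. The brightest, 1423389_at, gave 317, 400 and 287 in aERKO livers, against 410, 449 and 385 in WT livers, on high-fat diet. On normal diet it gave 317, 495 and 363 in aERKO livers, against 382, 772 and 425 in WT livers. The highest value belonged to WT normal replicate 2, which carried pancreatic transcripts, and the genotypes overlapped on both diets. The genotype difference was -0.31 ± 0.24 on high-fat diet and -0.37 ± 0.24 on normal diet, and without that array it was -0.06 on normal diet. The other Smad7 probe set, 1443771_x_at, gave 0.32 ± 0.41 and 0.26 ± 0.41, of the opposite sign on both diets but smaller than their SE.

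**Figure D3:**
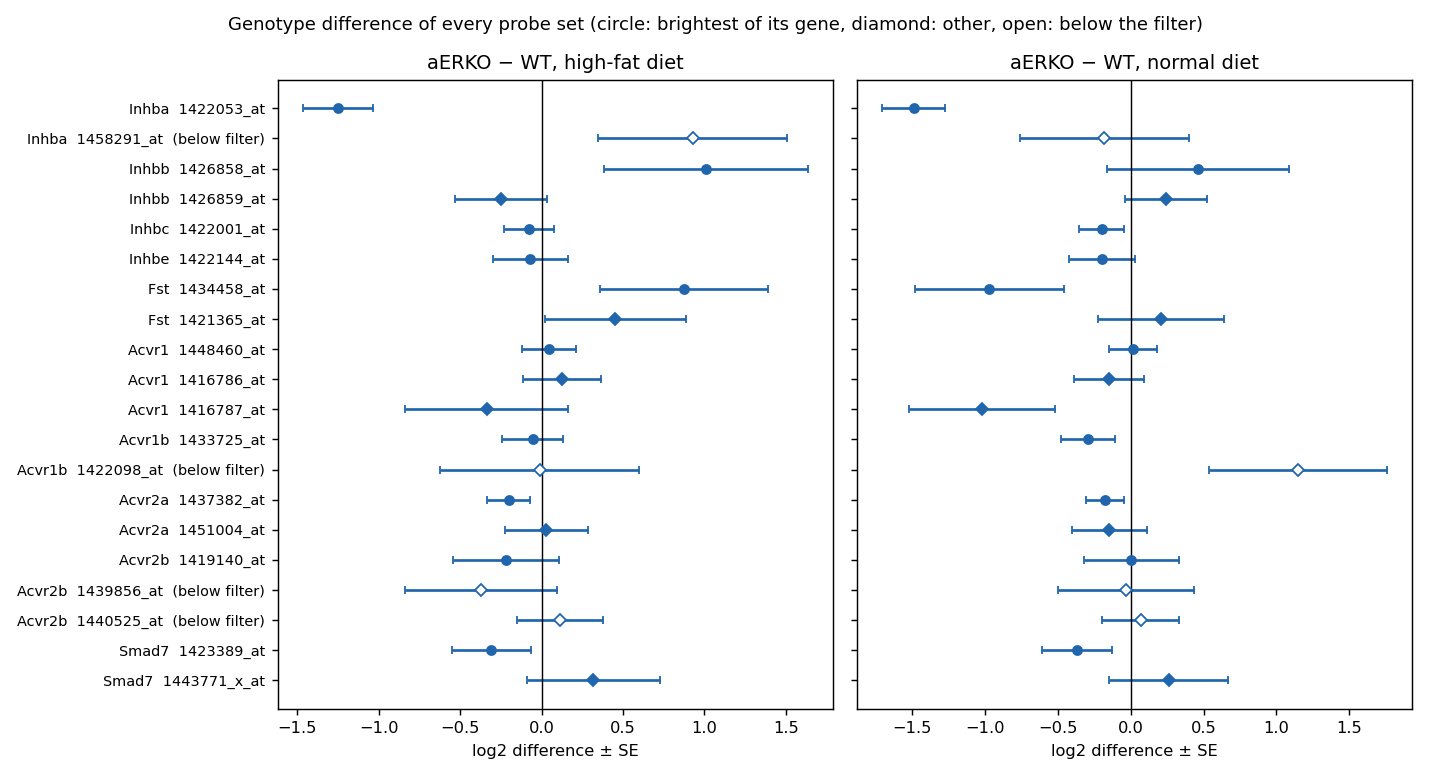
Genotype log2 difference with its SE (horizontal axis) for each of the 20 probe sets (vertical axis) on high-fat and normal diet, with circles for the brightest probe set of a gene and open symbols for those below the filter. Inhba 1422053_at stands at -1.25 and -1.49, while its open partner 1458291_at stands at 0.93 and -0.18.

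Counted over the 10 genes, 1 was called between genotypes on high-fat diet, where 1.98% of all genes were called, and 1 on normal diet, where 1.22% were. In both cases it was Inhba, lower in aERKO livers. Between diets, 0 of the 10 were called in aERKO livers (0.481% of all genes) and 0 in WT livers (0.0734%). For the interaction of genotype and diet, 0 of the 10 and 0% of all genes were called, with 728 genes at an unadjusted p under 0.05. At an unadjusted p under 0.05, 1 of the 10 passed in each comparison: Fst between diets in aERKO livers, Inhbc between diets in WT livers and Fst for the interaction, besides Inhba. Of all 12264 genes, 1265 passed between diets in aERKO livers and 1015 in WT livers. Between genotypes 1860 passed on high-fat diet and 1482 on normal diet. Since these contrasts are treated as those the genes were chosen by, nothing is read from these counts. The median log2 difference of the 10 genes between genotypes was -0.07 on high-fat diet and -0.20 on normal diet, beside -0.03 and -0.05 over all genes tested. Between diets it was -0.002 in aERKO livers and -0.23 in WT livers, beside 0.02 and -0.005 over all genes. Of the 38 uncalled differences between groups, 33 were within 0.5 of zero on the log2 scale.

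The rest of the pathway was read from 6 lists of 80 other genes, of which 77 were measured and 65 tested. In the genotype comparisons 1 gene was called, on both diets, and 0 of 65 were called between diets in either genotype or for the interaction. At an unadjusted p under 0.05, limma gave 11 genes between genotypes on high-fat diet, 9 on normal diet, 5 between diets in aERKO livers, 6 in WT livers and 3 for the interaction. Of all 12264 genes tested, 1860, 1482, 1265, 1015 and 728 passed in the same order, so nothing is read from these counts. The called gene was Vldlr, the very low density lipoprotein receptor, which stood in the list of ATF4 and ER stress genes. Vldlr gave 1048, 741 and 789 in aERKO livers, against 2192, 1511 and 1725 in WT livers, on high-fat diet. On normal diet Vldlr gave 850, 856 and 778 in aERKO livers, against 1701, 1687 and 2048 in WT livers. The genotypes did not overlap, with differences of -1.06 ± 0.16 on high-fat diet and -1.11 ± 0.16 on normal diet (limma adjusted p 0.00266 and 0.00208). The other 12 tested genes of that list were not called, among them Hspa5, the main chaperone of the endoplasmic reticulum (0.40 ± 0.15 on high-fat diet and 0.11 ± 0.15 on normal diet). Atf4 itself gave 0.03 ± 0.13 and 0.02 ± 0.13.

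None of the 11 tested Smad2/3 target genes was called by limma in any comparison, with 1 on high-fat diet and 0 on normal diet at an unadjusted p under 0.05 between genotypes. Their median log2 differences between genotypes were -0.09 on high-fat diet and -0.09 on normal diet, and Skil, a repressor that Smad3 signalling induces, gave 0.17 ± 0.26 and 0.03 ± 0.26. Angptl4, which encodes an inhibitor of lipoprotein lipase, gave -0.28 ± 0.18 and -0.27 ± 0.18. Among the 10 BMP and Smad1/5 targets, 0 were called (3 on each diet at an unadjusted p under 0.05), with medians of 0.09 and -0.09. Hamp, which encodes the iron hormone hepcidin and is a standard readout of hepatic BMP signalling, gave -0.09 ± 0.13 and -0.16 ± 0.13. Id2, an inhibitor of basic helix-loop-helix factors, gave 0.44 ± 0.16 and 0.37 ± 0.16 (limma adjusted p 0.202 and 0.376). The 7 other receptors tested, the 14 other ligands and binding proteins and the 14 Smads and regulators also had 0 called, with 5 genes among them at an unadjusted p under 0.05 on each diet. Beside these counts at an unadjusted p stand 1860 of all 12264 genes on high-fat diet and 1482 on normal diet. Bmpr2, the type II BMP receptor, gave 0.19 ± 0.10 and 0.38 ± 0.10 (limma adjusted p 0.403 and 0.110). Tgfbr1, the type I receptor of TGF-beta, gave -0.21 ± 0.11 and -0.03 ± 0.11. Among ligands and binding proteins, Bmp2 gave -0.42 ± 0.13 and -0.004 ± 0.13 (limma adjusted p 0.129 and 0.995), and the proteoglycan gene Dcn gave -0.09 ± 0.15 on both diets. Smad4, the common partner of the receptor-regulated Smads, gave -0.19 ± 0.12 and 0.09 ± 0.12, and Ppm1a, a phosphatase, gave 0.19 ± 0.16 and 0.32 ± 0.16.

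The signal pattern of Inhba over the 12 arrays was most like that of Sult3a1, a cytosolic sulfotransferase (Pearson r = 0.957 on log2 signals), among all genes tested. Klf1 (0.956), Rap1gds1 (0.953), Plg, which encodes plasminogen (0.941), and Bco1, a carotenoid-cleaving enzyme (0.933), followed. The points share the 4 groups, so r takes in differences between groups, and it was not computed within groups. For Fst the first were Ovca2 (0.924), Clec4n (0.917), Dusp12 (0.902), Uqcc1 (0.876) and Rras2 (0.872).

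**Figure D4:**
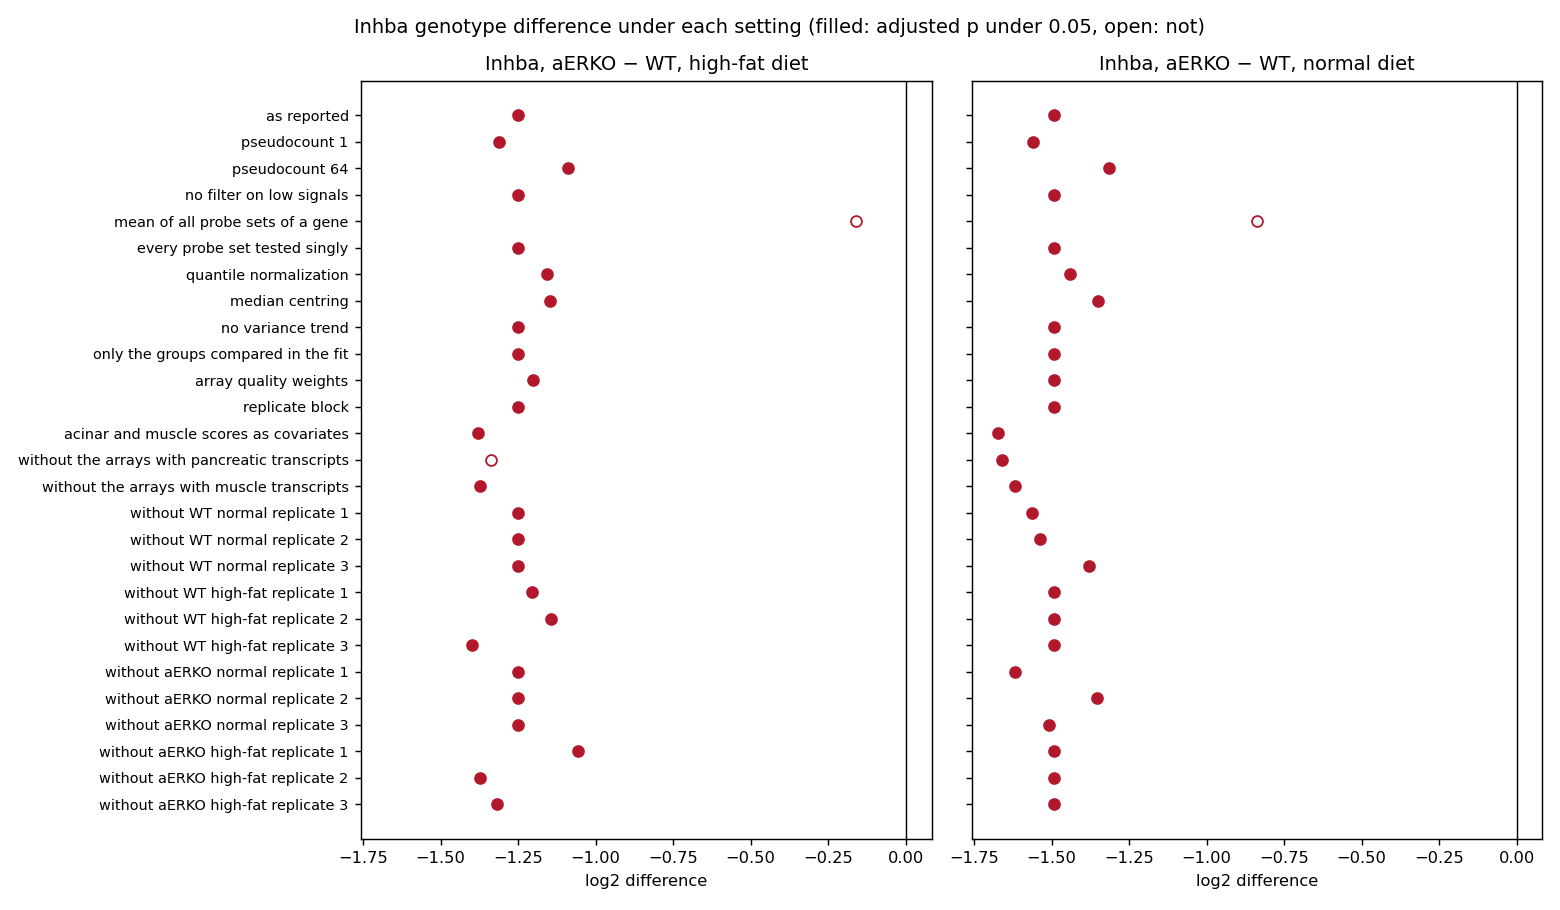
Inhba log2 difference (horizontal axis) between genotypes on high-fat and normal diet under each processing setting (vertical axis), filled where limma's adjusted p was under 0.05. All points are negative, and open points mark the mean of all probe sets on both diets and, on high-fat diet, the fit without the arrays with pancreatic transcripts.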

How the data were processed

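The authors deposited linear intensity values for 45101 probe sets on 12 arrays, made with Affymetrix Expression Console and MAS5 per the submitters' processing notes. Each array's trimmed mean (2% left out at each end) was 500.0. Detection calls were not used here. By the platform annotation 34958 probe sets had 1 symbol, 932 had several and 9211 were not listed. Signals were transformed as log2(signal + 16) and fitted in limma 3.58.1 (R 4.3.3) with a variance trend and Benjamini-Hochberg adjustment, all 4 groups sharing 1 estimate of the spread on 8 residual degrees of freedom. The fit was tested on simulated data. Precision is set by the number of arrays, with a median SE of 0.20 for a difference between groups. The genes, the pathway lists and the marker lists were chosen with earlier results of these data known. Named genes were all 10 members, called genes of the pathway lists, the brightest 2 of each list and, for Inhba and Fst, the 5 most similar genes by Pearson r. Alternatives covered the pseudocount, filter, probe set rule, scaling, variance model, array weights, replicate numbers and omitted arrays. Promoters came from RefSeq.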

Additional observations from a re-analysis of the deposited data

How the results depend on the processing

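Inhba was lower in aERKO livers under all 26 alternatives on both diets, and was called in 24 on high-fat diet and 25 on normal diet. Several alternatives could not change the size of its difference. No filter, no variance trend, the replicate block and fitting only the compared groups left -1.25 on high-fat diet and -1.49 on normal diet. Leaving out an array of the other diet did not change it either. Testing every probe set singly was scored on the brightest Inhba probe set. The second Inhba probe set gave 0.93 on high-fat diet and -0.18 on normal diet. The number of the 10 genes called fell to 0 on both diets with the mean of all probe sets of a gene, and to 0 on high-fat diet without the arrays with pancreatic transcripts, where 1 WT high-fat array remained. Leaving out each array in turn gave Inhba differences of -1.40 to -1.06 on high-fat diet and -1.62 to -1.35 on normal diet, all called. Of the 48 uncalled values of the 10 genes, 0 were called under any alternative (adjusted p under 0.05 in limma) and 30 changed sign under at least 1. Array quality weights raised the other pathway genes called to 7 between genotypes on high-fat diet (Nedd4l, Id2, Atoh8 and Hspa5 higher, Tgfbr3, Klf10 and Vldlr lower) and to 1 between diets in aERKO livers. Of all 12264 genes, the weights called 944 in the first of these comparisons and 187 in the second. Leaving out single arrays gave 1 to 3 on high-fat diet: 3 without aERKO high-fat replicate 3 or aERKO normal replicate 1, and 2 without WT normal replicate 3. These fits called 304, 304 and 308 of all genes, in that order. The cause was not tested.

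Centring each array on its median moved the median of all genes between genotypes to 0.07 on high-fat diet and 0.09 on normal diet, against -0.03 and -0.05 as scaled by the authors. It gave 116 called genes on high-fat diet (73 higher, 43 lower) in place of 243 (135 higher, 108 lower), and 94 on normal diet (56 higher, 38 lower) in place of 150 (72 higher, 78 lower). Array weights gave 944 called genes on high-fat diet.

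Same-numbered arrays did not deviate together more than others (r from -0.30 to 0.21 over 18 pairs, and from -0.25 to 0.28 over 36 pairs of different number). With 3 arrays a group this cannot show whether the numbers pair the arrays. With the replicate block Inhba stayed called, at -1.25 (adjusted p 0.0174) on high-fat diet and -1.49 (adjusted p 0.00689) on normal diet, and no call of the 10 genes changed. With 3 arrays a group, the 95% interval of Inhbb on high-fat diet spanned 0.786 to 5.17 of the WT level. The alternative without muscle transcripts was chosen after seeing the data.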

Other observations

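Atoh8, a transcription factor gene induced by BMP signals in liver, had the widest differences of the 65 other pathway genes tested and was singled out after its values were seen. On high-fat diet its single probe set gave 384, 147 and 124 in aERKO livers, against 16.6, 67.3 and 18.3 in WT livers. On normal diet it gave 14.4, 178 and 62.7 in aERKO livers, against 125, 282 and 155 in WT livers. The genotypes did not overlap on high-fat diet and overlapped on normal diet. The share of this gap over all genes was not counted, so nothing is read from it. The log2 difference between genotypes was 2.21 ± 0.62 on high-fat diet and -1.32 ± 0.62 on normal diet, and the difference between the diet effects was 3.52 ± 0.88. None of these was called by limma (adjusted p 0.0942, 0.420 and 0.447), and Atoh8 exceeded the array median on 7 of 12 arrays. The array weights gave 2.16 on high-fat diet with an adjusted p of 0.0262 in limma.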
